A study of Bos taurus with 27 samples.

Results

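Transcripts of 48 splicing factor genes were examined in 27 pools of in vitro produced bovine (Bos taurus) blastocysts. The genes were chosen by symbol, with earlier results of these data known. They were every listed gene whose symbol starts with HNRNP, SRSF, SF3A or SF3B, together with ESRP1, ESRP2, RBFOX2, PTBP1, TRA2A, TRA2B, U2AF1 and U2AF2, without uncharacterized LOC loci and without the kinases of SR proteins. They made up 48 of the 32637 genes counted, and fell into 20 hnRNP genes, 13 SRSF and TRA2 genes, 11 SF3A, SF3B and U2AF genes, and 4 regulators known from epithelial and other tissues.

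Each pool held the RNA of 2 blastocysts, graded 7 for stage and 1 for quality. The oocytes behind them had matured in vitro in medium with fluid of preovulatory follicles that had been classed as of greater or of lesser maturity. The labels name neither the follicle class nor the fertilization replicate of a pool, so the 27 pools were described as 1 group and follicle maturity was not compared here. According to the authors, all blastocysts were collected at about the same time after fertilization with semen of the same bull. The labels give no agent, genotype or age for a pool, and different embryos within a pool cannot be told apart.

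Splicing removes introns from a new transcript and joins its exons. The U2 small nuclear ribonucleoprotein, which carries the SF3A and SF3B proteins, recognizes the branch point near the end of an intron, after the U2AF pair has bound the adjacent splice site. SR proteins, encoded by the SRSF and TRA2 genes, mostly bind exons and favor their inclusion, whereas hnRNP proteins coat new transcripts and often favor exon skipping. ESRP1 and ESRP2 are regulators of epithelial cells, and the blastocyst carries an epithelium in its outer layer, the trophectoderm, around an inner cell mass with epiblast and hypoblast.

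Abundance is given as CPM, which scales the reads on a gene to a fixed number of reads over all genes in that pool. Total counts were between 10517606 and 44253564 with a median of 22293594, and 3 counts were worth between 0.0678 and 0.285 CPM. Genes with at least 1 CPM in 12 pools, 12310 in all, were retained for tests. The libraries were read from the poly(A) end of transcripts, so CPM was not divided by gene length, and a difference in CPM between genes also depends on how well each 3′ end was copied. All 7 trophectoderm markers (CDX2, GATA2, GATA3, TFAP2A, KRT8, KRT18 and ELF3) reached 1 CPM in every pool. Of the epiblast markers NANOG, SOX2, FGF4 and PRDM14, 3 of 4 were retained and FGF4 had a median of 0. Of 5 hypoblast markers, 3 were retained. Summed markers of other cells were at 11.6 to 41.2 CPM for cumulus or granulosa cells, 9.42 to 62.5 CPM for leukocytes and 19.2 to 76.6 CPM for oocytes. Epiblast markers summed to 36.5 to 171 CPM, which overlaps these ranges, and hypoblast markers to 342 to 1519 CPM. The trophectoderm sum, 15327 to 38619 CPM, rested mostly on KRT8 and KRT18 (medians of 18607 and 7937 CPM). In pools 9 and 31 more of the splicing factor genes had their lowest value than in other pools, and values that rest on these pools are also given without them.

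All 48 genes reached 1 CPM in at least 12 pools, against 37.7% of all genes in the table. In all 27 pools, 47 of the 48 did so, against 27.4% of all genes. The exception was U2AF2, the large subunit of the U2AF pair, which reached 1 CPM in 12 pools. The median CPM of 42 genes was above the median of retained genes, 14.4 CPM. Added together, the 48 genes took 8845 CPM in pool 31, 10336 CPM at the median and 11995 CPM in pool 13, a 1.36-fold range. With TMM scaling, an edgeR method that corrects for differences in RNA composition, the sum was lowest in pool 9 (9588) and highest in pool 21 (11714), a 1.22-fold range. The rank order of the 48 genes differed little between pools, with a Spearman rho of at least 0.926 and a median of 0.983 over pairs of pools. For retained genes these values were 0.880 and 0.945.

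**Figure D1:**
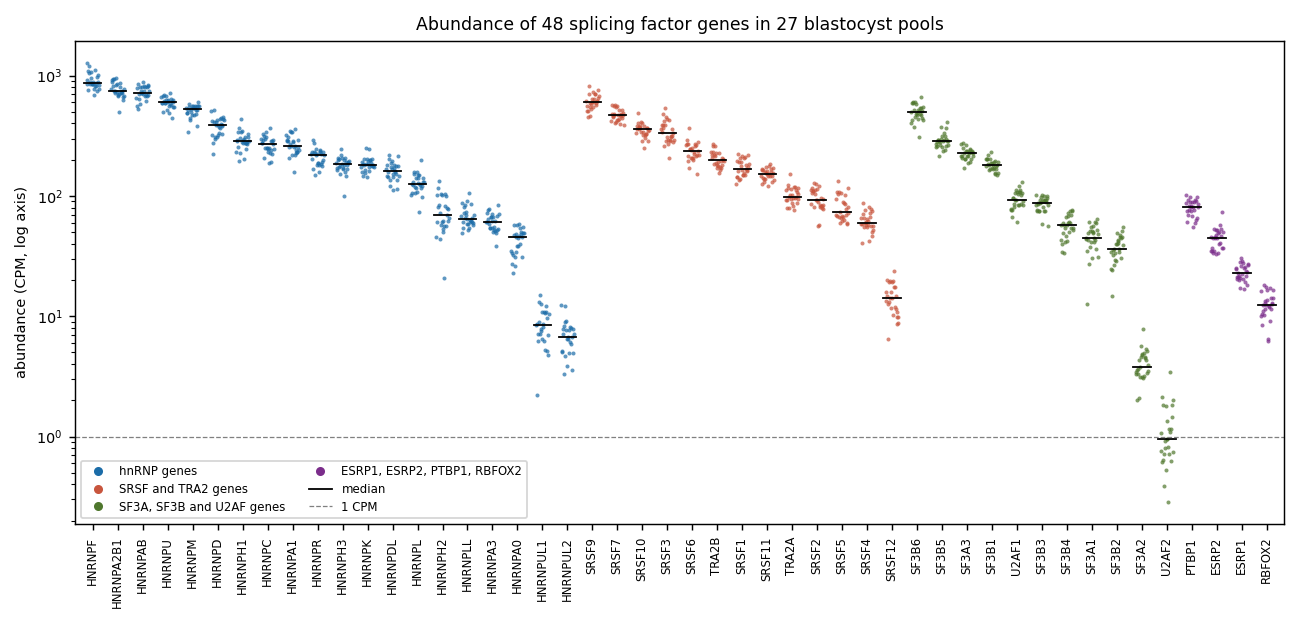
Abundance of the 48 splicing factor genes by family, in CPM on a log axis, with 1 point for each of the 27 pools, a black bar at the median and a dashed line at 1 CPM. The genes span from a median of 0.957 CPM for U2AF2 to 869 CPM for HNRNPF, and within most families a few genes sit well below the others.

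The hnRNP genes held the largest part of this abundance, with a summed level of 4800.1 to 6843 CPM and a median of 5849.5 CPM. HNRNPF, which binds G-rich RNA, was the most abundant of the 48 genes, at 694 CPM in the lowest pool, 869 CPM at the median and 1279.9 CPM in the highest. HNRNPA2B1, a binder of nuclear RNA that also takes part in microRNA processing, had a median of 744 CPM and a range of 499.9 to 958 CPM. HNRNPAB followed with a median of 721 CPM (527 to 881 CPM). HNRNPU, a nuclear matrix protein that also binds chromatin, had a median of 603 CPM and a narrow range of 444 to 723 CPM. At the other end, the HNRNPU-like genes were scarce. HNRNPUL1 was between 2.22 and 14.9 CPM (median 8.42) and HNRNPUL2 between 3.33 and 12.3 CPM (median 6.71). Next above them were HNRNPA0, at 23.1 to 58.8 CPM with a median of 45.7 CPM, and HNRNPA3, at 38.7 to 83.9 CPM with a median of 61.2 CPM. The lowest pool of HNRNPU was therefore far above the highest pool of either like gene.

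Other hnRNP genes lay between these ends. HNRNPM, HNRNPD, HNRNPH1, HNRNPC, HNRNPA1 and HNRNPR had medians of 531, 387, 286, 269, 262 and 219 CPM. HNRNPH3, HNRNPK, HNRNPDL and HNRNPL had medians of 183, 182, 162 and 126 CPM. HNRNPLL, a paralog of HNRNPL known as a splicing regulator of lymphocytes, had a median of 64.0 CPM and a range of 49.5 to 105 CPM. HNRNPH2, an X-linked close relative of HNRNPH1, had a median of 69.9 CPM and a range of 20.8 to 134 CPM, which is 6.45-fold. Without pool 31, where it was lowest, the range was 44.1 to 134 CPM, which is 3.04-fold. HNRNPUL1 spanned 6.73-fold, or 3.14-fold without pool 5, whose value rested on 53 counts, and HNRNPUL2 spanned 3.71-fold.

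The SRSF and TRA2 genes had a summed level of 2504 to 3383 CPM (median 2872 CPM). SRSF9 was the most abundant, at 453 to 818 CPM with a median of 603 CPM. SRSF7 had a median of 472 CPM and the narrowest fold range of the 48 genes (391 to 570.3 CPM, 1.46-fold). SRSF10, a protein that represses splicing when it is dephosphorylated, had a median of 358 CPM and a range of 249 to 493 CPM. SRSF3, the smallest SR protein, which also acts in mRNA export, was more spread, at 205 to 536 CPM with a median of 333 CPM. The lowest medians were those of SRSF12 at 14.1 CPM (6.49 to 23.8 CPM), SRSF4 at 59.7 CPM (40.8 to 87.1 CPM), SRSF5 at 74.2 CPM (57.9 to 133 CPM) and SRSF2 at 92.8 CPM (56.1 to 128 CPM). SRSF6, TRA2B, SRSF1, SRSF11 and TRA2A had medians of 235, 199, 166, 152 and 98.5 CPM. Except for SRSF12, every gene of this family thus stayed above 40 CPM in all 27 pools.

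Genes of the U2 step had a summed level of 1305 to 1721 CPM (median 1513 CPM). Their levels were far apart, also among the SF3A and SF3B genes, whose proteins are carried by the same particle. SF3B6, the branch point protein also known as p14, had a median of 497 CPM and a range of 310.3 to 665 CPM. SF3B5, a small subunit of SF3B, had a median of 288 CPM (215 to 409 CPM). SF3A3 had a median of 228 CPM (171 to 273 CPM), and SF3B1, the scaffold of the SF3B complex, a median of 180.3 CPM (149 to 231 CPM). U2AF1, SF3B3 and SF3B4 had medians of 91.9, 88.0 and 57.0 CPM. SF3A1 was at 45.0 CPM at the median (12.6 to 64.2 CPM) and SF3B2 at 36.5 CPM (14.6 to 55.2 CPM), and both had their lowest value in pool 9. SF3A2 was scarce in every pool, with 2.00 to 7.89 CPM and a median of 3.81 CPM. U2AF2 was the lowest of the 48 genes, from 0.285 to 3.46 CPM, median 0.957 CPM, and its lowest pool held 3 counts. How far these low values of SF3A2 and U2AF2 reflect the copied 3′ end or the annotated gene end was not tested.

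Among the tissue regulators, PTBP1, a repressor of neuronal exons in many non-neuronal cells, had a median of 81.6 CPM and a range of 54.9 to 102 CPM. Both epithelial regulators were detected in every pool, ESRP2 at 32.6 to 72.8 CPM with a median of 45.1 CPM, and ESRP1 at 16.9 to 30.7 CPM with a median of 23.0 CPM. RBFOX2, the RBFOX family member found outside nerve and muscle, had a median of 12.4 CPM and a range of 6.28 to 18.1 CPM. Regulators known mainly from nerve or muscle were also measured. Of 17, 6 were retained, beside 37.7% of all genes in the table. In all 27 pools, 0 of 17 reached 1 CPM, beside 27.4% of all genes. PTBP2 and CELF6 reached it in 26 pools and RBM24 in 24, and CELF6 had a median of 6.38 CPM. The other splicing genes were broadly present. All 34 genes of a list of other core spliceosome parts reached 1 CPM in every pool. Of 18 other regulators of many tissues, 18 were retained, and of 7 kinases of SR proteins 6 were retained, the exception being SRPK3 with at most 17 counts. These lists summed to 5487 to 6594 CPM, 1055 to 1402 CPM and 249 to 342 CPM.

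Close relatives, and some partners in 1 complex that are not related in sequence, were then compared within each pool as a ratio of CPM, which removes differences in depth. A total of 20 pairs were tested with a two-sided paired sign-flip permutation test of log2((CPM + 1)/(CPM + 1)) over 27 pools, with Benjamini-Hochberg adjustment over the pairs. Of these, 18 pairs had the same gene higher in every pool, with an adjusted p of 1.05e-05, and the raw p of 1e-05 was the smallest that 100000 resamples can give. ESRP2 exceeded ESRP1 in 27 of 27 pools, by 1.20-fold in pool 31, 1.84-fold at the median and 3.15-fold in pool 44, and by at least 1.25-fold without pool 31. TRA2B exceeded TRA2A by 1.98-fold (1.46-fold to 3.39-fold), with the largest ratio in pool 9 and at most 2.76-fold without it. HNRNPF exceeded HNRNPH1 by 3.09-fold at the median, and HNRNPH1 exceeded HNRNPH2 by 4.18-fold, with 2.32-fold in pool 14 and 9.81-fold in pool 31. Without pool 31 the highest ratio of HNRNPH1 to HNRNPH2 was 7.66-fold.

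**Figure D2:**
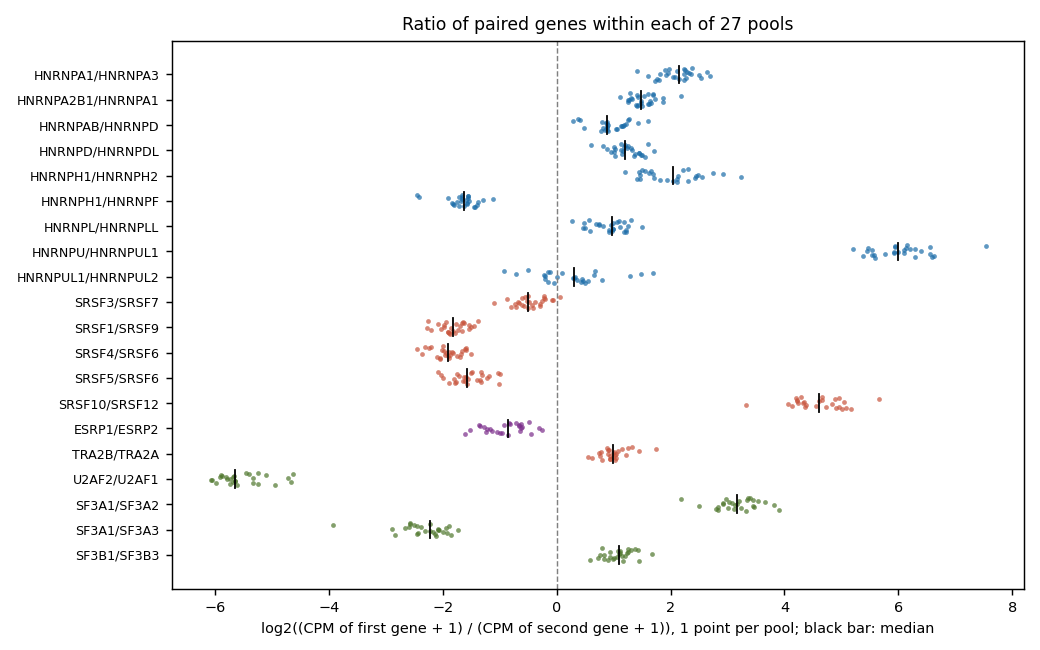
Ratio of paired splicing factor genes in each of 27 pools, as log2((CPM of first gene + 1)/(CPM of second gene + 1)), with 1 point per pool and a black bar at the median. In 18 pairs all points lie on 1 side of the dashed line at 0, while SRSF3/SRSF7 crosses it in pool 9 and HNRNPUL1/HNRNPUL2 lies on both sides.

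In the other pairs, HNRNPA2B1 exceeded HNRNPA1 by 2.80-fold, HNRNPA1 exceeded HNRNPA3 by 4.49-fold, and HNRNPAB exceeded HNRNPD by 1.86-fold at the median. HNRNPD exceeded HNRNPDL by 2.30-fold and HNRNPL exceeded HNRNPLL by 1.97-fold. HNRNPU exceeded HNRNPUL1 by 70.8-fold. Among SR genes, SRSF9 exceeded SRSF1 by 3.55-fold, SRSF6 exceeded SRSF4 by 3.79-fold and SRSF5 by 2.99-fold, and SRSF10 exceeded SRSF12 by 26.0-fold. For the U2 step, SF3A3 exceeded SF3A1 by 4.76-fold, SF3A1 exceeded SF3A2 by 10.6-fold and SF3B1 exceeded SF3B3 by 2.14-fold. U2AF1 exceeded U2AF2 in all 27 pools, by at least 32.3-fold in every pool and 108-fold at the median. These folds, like the others here, are ratios of CPM without the 1 CPM added in the test. With it added, the median log2 ratio of U2AF2 to U2AF1 was -5.65, a smaller distance. Each of the orders named so far for these other pairs held in every pool. SRSF7 exceeded SRSF3 in 26 of 27 pools, by 1.41-fold at the median, and only in pool 9 was SRSF3 the higher, with 478 against 458 CPM. HNRNPUL1 and HNRNPUL2 were the closest pair, with HNRNPUL1 higher in 16 pools, lower in 10 and equal in 1, a median ratio of 1.26 and a permutation adjusted p of 0.0335.

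The spread of the 48 genes among pools was set against its trend over abundance, and then beside all retained genes. No set of genes matched in abundance was drawn. The measure was edgeR's biological coefficient of variation, the spread beyond counting error, divided by its trend over abundance. The median over the 48 genes was 0.701 against 0.850 over the retained genes, and 40 of the 48 lay below 0.850. Above 1 were 2 of the 48 (4.17%) and 28.5% of the retained genes. Without division by the trend, the median coefficient was 17.6% for the 48 genes and 33.7% for the retained genes, which also differ in abundance. The steadiest genes against the trend were SF3A3 (0.559), HNRNPU (0.561), SRSF11 (0.568), SF3A2 (0.580) and ESRP1 (0.601). For the scarce SF3A2 this holds only against the trend, since its undivided coefficient was 34.4%, beside 12.7% for SF3A3. HNRNPH2 was the most variable against the trend, at 1.22, followed by SRSF3 at 1.00, SF3A1 at 0.976, SF3B2 at 0.899 and SRSF5 at 0.883. SRSF5 was at its highest, 133 CPM, in pool 13.

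**Figure D3:**
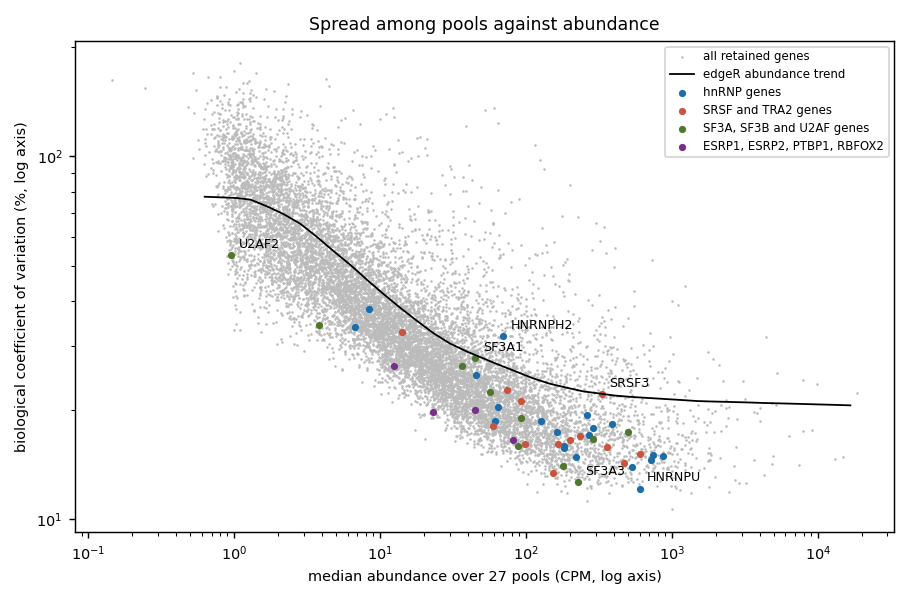
Biological coefficient of variation in percent against median CPM over 27 pools, both on log axes, with all retained genes in grey, the edgeR trend as a line and the 48 splicing factor genes in colour. Most coloured points lie below the line, and HNRNPH2, at 32.0% and 69.9 CPM, stands above it.

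The pools that stood apart did so in different genes. In pool 9, 33 of the 48 genes were below the median of the other pools, as were 54.3% of retained genes. This held for 9 of 11 genes of the U2 step, with a median log2 difference of -0.48, and for 4 of 4 tissue regulators (-0.37). It also held for 12 of 20 hnRNP genes (-0.17) and 8 of 13 SRSF and TRA2 genes (-0.15). SF3A1 was at 12.6 CPM in pool 9 against 27.3 to 64.2 CPM in the others, which is 3.69-fold below their median. SF3B2 was at 14.6 CPM against 24.1 to 55.2 CPM, 2.58-fold lower, and SF3B4 was at 34.1 CPM, 1.67-fold lower. The neighbours of these proteins in the same complexes were not moved alike, since SF3B1 (205 CPM) and SF3B6 (595 CPM) were above the median of the others. Outside the U2 step, HNRNPA0 was 1.98-fold lower, HNRNPD 1.76-fold and HNRNPM 1.58-fold. SRSF10 was at its highest in pool 9, at 493 CPM against at most 413 CPM elsewhere, as was TRA2B, at 269.99 CPM against at most 262 CPM. Of the 48 genes, 9 had their lowest value in pool 9 (18.8%), against 11.6% of retained genes. With TMM scaling 15 did (31.2%), against 12.0% of retained genes. The total count of pool 9 was 14526367, and its mitochondrially encoded share was 5.10% within a range of 3.75% to 6.30%. Their part in these values was not tested.

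Pool 31 held the lowest value of 13 of the 48 genes (27.1%), against 17.9% of retained genes. HNRNPH2 was at 20.8 CPM in pool 31 and at 44.1 to 134 CPM in the others, and HNRNPH3, of the same family, was at 99.1 CPM against 146 to 244 CPM. SRSF3 was at 205 CPM against 259.9 to 536 CPM and SF3B6 at 310.3 CPM against 377 to 665 CPM. In contrast SF3A2, at 7.89 CPM, SRSF12, at 23.8 CPM, and HNRNPA0, at 58.8 CPM, had their highest value there. Scaling changed the overall shift of this pool. The median log2 difference of the 48 genes from the other pools was -0.26 in CPM, beside -0.15 for retained genes, and -0.06 with TMM scaling, beside 0.04. The lowest value of 7 genes (14.6%) and the highest of 11 (22.9%) then fell in this pool, in place of 13 and 3 in CPM, beside 13.1% and 16.02% of retained genes. With TMM scaling 15 of 20 hnRNP genes were still below the median of the other pools, and 8 of 11 genes of the U2 step were above it. Of retained genes, 47.6% were below it. The TMM factor of pool 31 was 0.875, the lowest of all pools.

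**Figure D4:**
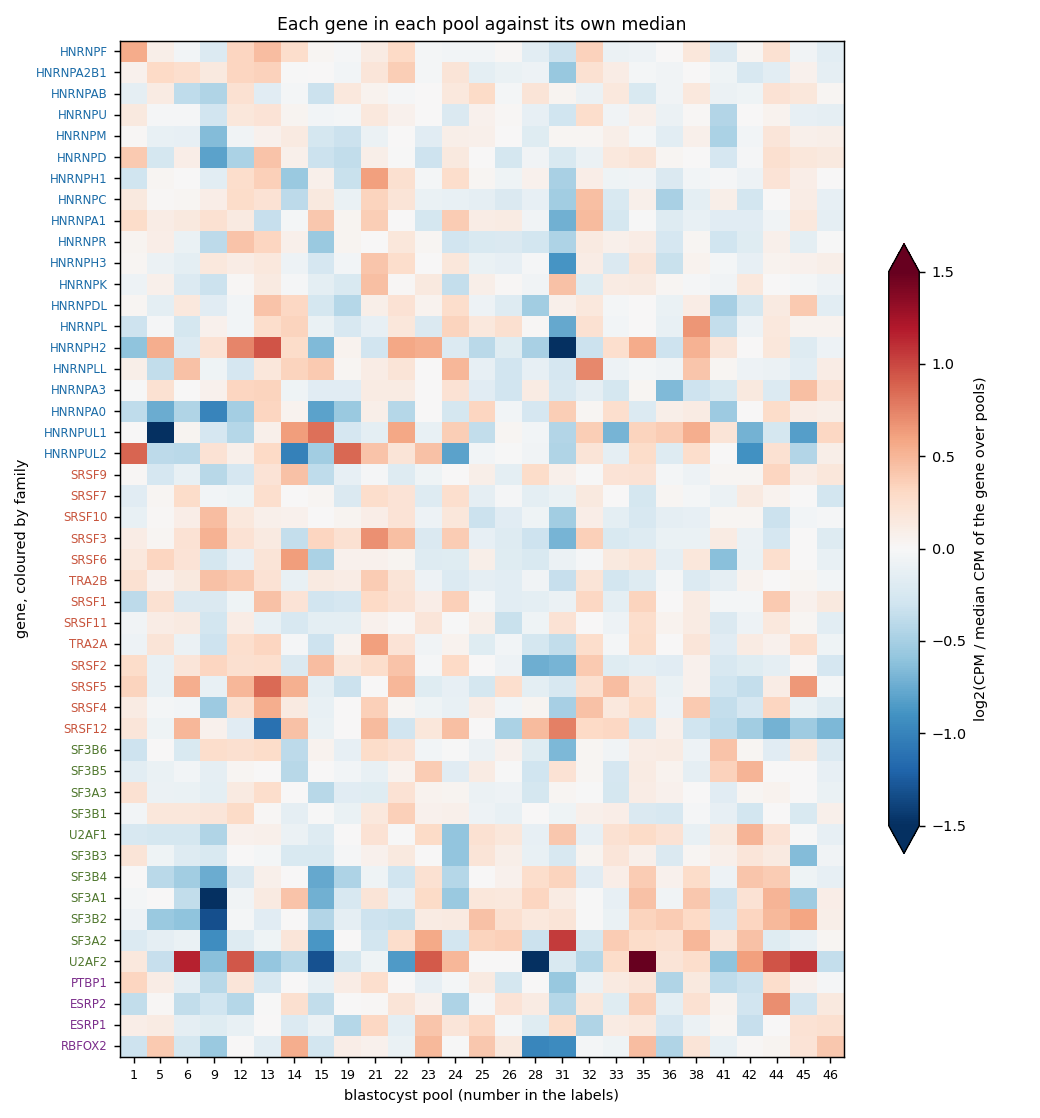
Log2 of CPM divided by the median CPM of the gene, for the 48 splicing factor genes (rows, coloured by family) in 27 pools (columns), with red above and blue below the median and colours capped at 1.5. Pool 9 is blue in SF3A1, SF3B2, SF3A2, SF3B4, HNRNPA0 and HNRNPD and red in SRSF3, SRSF10 and TRA2B. Pool 31 is dark blue in HNRNPH2 and HNRNPH3 and red in SF3A2.

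It was next asked whether the genes moved with the makeup of the pools. Slopes were fitted over all retained genes in edgeR with the quasi-likelihood test and Benjamini-Hochberg adjustment. The fits held no term for follicle class or fertilization replicate, so the pools were taken as independent. For an epiblast score, the mean log2(CPM + 1) of its markers, 0 of the 48 genes were called at an adjusted p of 0.05, against 0.0487% of retained genes called higher and 0.0244% lower. At an unadjusted p of 0.05, 2 of the 48 passed (4.17%), beside 7.56% of retained genes, and DESeq2 called 0. For the mitochondrially encoded share of counts, 0 were called, against 0.0812% of retained genes higher, with 11 of the 48 (22.9%) at an unadjusted p of 0.05, beside 9.31% of retained genes, and 0 by DESeq2. For the total count of the pool, 0 were called, against 0 of the retained genes, with 0 at an unadjusted p of 0.05, beside 2.76% of retained genes, and 0 by DESeq2.

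With the trophectoderm score, which is the same mean over its 7 markers, 6 of the 48 genes were lower and 0 higher. Only HNRNPC was still called when the mitochondrially encoded share was added to the fit. Of the retained genes, 3.27% were called lower and 4.54% higher. At an unadjusted p of 0.05 in edgeR, 17 of the 48 passed (35.4%), beside 24.1% of retained genes. Slopes of both signs were among these 17, and SF3A2 and SRSF9, which were not called, rose with the score. The score was between 6.25 in pool 32 and 7.65 in pool 14. The median slope was -0.065 over the 48 genes and -0.0050 over the retained genes, but -0.044 and -0.092 when genes were not filtered on low values, so that the order of these medians turned with the filter. HNRNPC, which packages new transcripts and keeps cryptic exons out, had a median of 269 CPM and a range of 188 to 368 CPM, highest in pool 32, where the score was lowest, and lowest in pool 31, where it was second highest. Its log2 change per unit of score was -0.58 (SE 0.099, adjusted p 0.000524). SRSF3 was at 427 CPM in pool 32 and 259.9 CPM in pool 14, with a slope of -0.65 (SE 0.163, adjusted p 0.0139). SRSF2, an SR protein with broad roles in exon inclusion, was between 56.1 and 128 CPM and had a slope of -0.57 (SE 0.158, adjusted p 0.0246). SF3B6 had a slope of -0.43 (SE 0.132, adjusted p 0.0390), and in pools 31 and 14, which had the highest scores, it was at its 2 lowest values, 310.3 and 377 CPM. HNRNPH3, between 99.1 and 244 CPM, had a slope of -0.37 (SE 0.118, adjusted p 0.0484). TRA2B, between 156 and 269.99 CPM, had a slope of -0.38 (SE 0.121, adjusted p 0.0492).

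These calls did not rest on the pools alike. HNRNPC and SRSF3 passed when each pool was left out in turn, with adjusted p of at most 0.0027 and 0.0488. SRSF2 was lost only without pool 31 (adjusted p 0.0803). SF3B6 was lost in 8 of the 27 fits, HNRNPH3 in 21 and TRA2B in 19. Without pool 31 the count was 2 genes, HNRNPC and SRSF3, and without pool 9 it was 3, with SRSF2 added. Without pools 12, 13, 21, 22 or 25 the count was also 3. The score moved against the mitochondrially encoded share of counts over the 27 pools (Spearman rho -0.462, permutation p 0.0156, Pearson's r -0.340, permutation p 0.088, and r -0.221 without the 2 pools farthest from the median score). On that share HNRNPC (slope 0.90), SRSF3 (1.17), SF3B6 (0.84), TRA2B (0.76) and SRSF2 (0.88) had positive slopes, with adjusted p of 0.234 to 0.387 in edgeR. The slope of HNRNPH3 was weaker, at 0.41 (adjusted p 0.664 in edgeR). With the log2 share added to the fit on the score, which was done after seeing the data, HNRNPC kept its call (slope -0.48, adjusted p 0.00188). SRSF3 (-0.49, adjusted p 0.0616), SRSF2 (-0.46, adjusted p 0.0861), HNRNPH3 (-0.34, adjusted p 0.108), SF3B6 (-0.33, adjusted p 0.127) and TRA2B (-0.28, adjusted p 0.177) did not pass. The score and the genes were read in the same libraries, and in a pool of whole embryos a smaller share of a cell type and less RNA per cell cannot be told apart. When the score was computed from TMM scaled CPM, SF3B6 (adjusted p 0.0802) and TRA2B (adjusted p 0.108) did not pass. Of the 34 other core spliceosome genes, 3 were higher with the trophectoderm score and 1 was lower. SNRNP70, the U1 protein that binds first at the start of an intron, had a slope of 0.76 (adjusted p 0.0206), SNRPA, also of U1, one of 0.66 (adjusted p 0.0302), and SF1, the first branch point binder, one of 0.50 (adjusted p 0.0368), while AQR, an intron-binding helicase, had a slope of -0.70 (adjusted p 0.0178). Among the 18 other regulators SRRM2 was called higher (0.72, adjusted p 0.0407), and of the 6 retained nerve or muscle regulators RBM24 was called lower (-2.66, adjusted p 0.00369) at a median of 2.51 CPM. Of the 6 retained SR protein kinases, 0 were called.

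**Figure D5:**
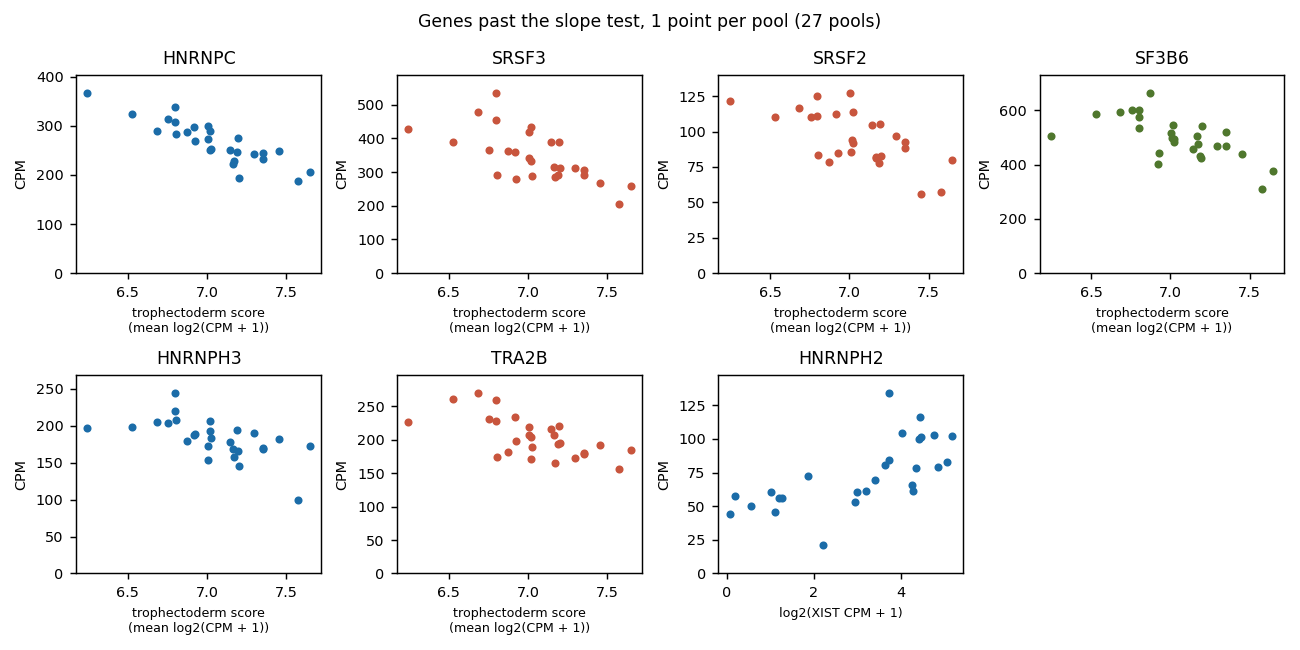
CPM of HNRNPC, SRSF3, SRSF2, SF3B6, HNRNPH3 and TRA2B against the trophectoderm score, and of HNRNPH2 against log2(XIST CPM + 1), with 1 point for each of 27 pools and axes of abundance from 0. The first 6 genes fall along the score, from 368 CPM in pool 32 to 188 CPM in pool 31 for HNRNPC, and HNRNPH2 rises with XIST.

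HNRNPH2, the most variable of the 48 genes against the abundance trend, is the only one of them on the X chromosome (gene span X:50797754-50803596, ARS-UCD2.0). After its values were seen, a slope was therefore tested on log2(CPM + 1) of XIST, the RNA that coats the inactive X chromosome of female cells. XIST was between 0.0484 CPM in pool 15 and 35.4 CPM in pool 5. HNRNPH2 was at 44.1 CPM in pool 15 and 102 CPM in pool 5, with its highest value, 134 CPM, in pool 13 at 12.3 CPM of XIST and its lowest, 20.8 CPM, in pool 31 at 3.68 CPM of XIST. Its slope was 0.20 (SE 0.043, adjusted p 0.00573), and it was called when each pool was left out in turn, with slopes of 0.19 to 0.21. HNRNPH2 was the only one of the 48 genes called, against 2.57% of retained genes called higher and 1.99% lower. Among X-linked retained genes other than XIST itself, 173 of 445 were higher with XIST (38.9%), against 139 of 11808 on other chromosomes (1.18%). HNRNPH2 thus moved with XIST as many X-linked genes did, and the pools' share of female embryos was not measured. HNRNPA1 (slope -0.09) had an adjusted p of 0.0545 in edgeR and was called lower by DESeq2. Of the other splicing lists, MBNL3, a muscleblind-like regulator, was higher with XIST (slope 0.25, adjusted p 0.00104) and PHF5A, which binds SF3B1 in the U2 particle, was lower (slope -0.13, adjusted p 0.0255).

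Finally, the 48 genes were compared with each other across the pools by Spearman correlation, as a description over 27 points that share library and depth. The median rho over 1128 pairs was 0.143, beside 0.0250 over pairs of 2462 retained genes taken at a fixed step from the list by name, and 67.7% of pairs were above 0, beside 54.1%. With TMM scaling the medians were 0.0473 and 0.00061, with 57.4% and 50.1% of pairs above 0. Within families the median was 0.193 for hnRNP genes, 0.186 for SRSF and TRA2 genes and 0.259 for genes of the U2 step, and 0.113, 0.125 and 0.203 with TMM scaling. The highest of all 1128 pairs was SRSF2 with SRSF3 (rho 0.827, and 0.884 with TMM scaling), both of which were called lower with the trophectoderm score. HNRNPF with HNRNPU had a rho of 0.821, and HNRNPK with U2AF1 one of 0.814. HNRNPU with SRSF4 had a rho of 0.824, which fell to 0.636 with TMM scaling. SF3A1 with SF3B4 (0.799) was the highest pair within the U2 step. An opposed pair was also found there, since SF3B1 and SF3B2, whose proteins sit in the same complex, had a rho of -0.653. Between families, SF3B4 had a rho of -0.749 with SRSF3 and -0.676 with SRSF10. HNRNPA1 with SF3A2 was at -0.719. Without pools 9 and 31 the values were 0.795 for SRSF2 with SRSF3, 0.785 for SF3A1 with SF3B4, -0.612 for SF3B1 with SF3B2 and -0.712 for SF3B4 with SRSF3. These pairs were named because they were the most extreme.

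Some counts may include reads of other loci. In the RefSeq annotation, 12 of the 48 genes overlap another gene in the table, and how the counting treated strand and reads with several matches is not given in the sources used here. For SRSF2 the overlapping gene was METTL23, with a median of 2.18 CPM, for SF3B6 it was FKBP1B (35.6 CPM), for HNRNPA1 it was NFE2 (45.5 CPM) and for HNRNPDL it was ENOPH1 (31.7 CPM). Neither METTL23 (adjusted p 0.444) nor FKBP1B (adjusted p 0.775) was called in edgeR's test on the trophectoderm score. The hnRNP genes and several SRSF genes have processed copies in mammalian genomes, so their counts are uncertain to that extent.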

How the data were processed

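The data were RNA-sequencing counts per gene for 27 blastocyst pools. The authors amplified cDNA from the poly(A) end, trimmed forward reads with fastp, aligned them with STAR and counted them on genes of ARS-UCD2.0 with featureCounts, and they deposited raw counts of 32637 genes without normalization. Versions and strand settings are not given in the sources used here. Total counts per pool were 10517606 to 44253564, so 3 counts were worth 0.0678 to 0.285 CPM, which covers counting error only since reads carry no molecular identifiers. The labels assign no treatment or replicate, so all pools formed 1 group. p-values measure the spread between pools taken as independent. According to the authors, the pools came from several fertilization replicates under both fluid classes, and no test here held a term for either. Pools that share a replicate or class may be alike, so the p-values may be too small. Nothing in the labels ties a pool to its oocyte donors.

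CPM used the column totals over all genes, and the 12310 genes that reached 1 CPM in 12 or more pools entered the tests. Slopes were fitted with edgeR 4.0.16 (quasi-likelihood, TMM) in R 4.3.3 and adjusted by Benjamini-Hochberg over all tested genes, with DESeq2 1.42.0 as an alternative. Pair ratios were tested by sign-flip permutation with 100000 resamples and a pseudocount of 1 CPM, in Python 3.11.15 with numpy 2.4.6 and scipy 1.17.1. All 48 symbols were matched to the RefSeq annotation of ARS-UCD2.0. The slope fit was tried on simulated counts with known slopes on the epiblast score only, so this trial does not cover the other slopes. Genes were named by rule, namely the 4 highest and 4 lowest by median CPM in each family, the 5 highest and 5 lowest in relative dispersion, those called in a slope test and both genes of each pair. Pools 9 and 31, the correlated pairs and other genes were singled out with their values in view. The genes, pathway lists and markers were chosen with earlier results of these data known. The XIST slope, the fits without single pools, the mitochondrially encoded share as a covariate and the scores from TMM scaled CPM were added after seeing the data. Alternatives covered the CPM limit, the normalization, the tool, the filter on low values, the pseudocount, the correlation, the total count as a covariate and left-out pools.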

Additional observations from a re-analysis of the deposited data

How the results depend on the processing

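No called slope and no median pair ratio changed sign under the alternatives run. The order of the median trophectoderm slopes of the 48 genes and of all genes tested turned without the filter on low values, and pool 31 held more lowest than highest values of the 48 genes in CPM but fewer with TMM scaling. The median coefficient of variation of the 48 genes over pools, 16.9% in CPM, was 16.4% with TMM scaling, 16.1% with DESeq2 size factors and 16.05% without pools 9 and 31. The median relative dispersion of 0.701 was 0.751 when only genes with 1 CPM in all 27 pools were kept, and 0.696 to 0.719 with each pool left out. With only those genes kept, the median over all genes rose from 0.850 to 0.884, and 39 of 47 splicing factor genes lay below it. The median correlation among the genes, 0.143, was 0.0473 with TMM scaling, 0.158 as Pearson's r and 0.126 to 0.155 with each pool left out. Of the 6 genes called with the trophectoderm score, 3 were called without a filter on low values, 4 with the total count as a covariate, 1 (HNRNPC) with the mitochondrially encoded share as a covariate, 4 with the score from TMM scaled CPM, 7 by DESeq2 and with RLE factors (HNRNPA2B1 added), 8 without the 2 pools farthest from the median score, and 2 to 8 with each pool left out. The 1 gene called with XIST became 2 by DESeq2 and 2 without the filter, HNRNPA1 being added, and was 1 to 2 with each pool left out. The counts of 0 genes for the other slopes stayed at 0. The cause of these differences was not tested. All 20 pair ratios kept their call with a pseudocount of 0.1 CPM. Division of CPM by transcript length was not run, since only gene spans were given. No paired analysis was possible because the labels place all pools in 1 group. Depth limits U2AF2, SF3A2, HNRNPUL1, RBFOX2 and HNRNPUL2 most, whose lowest pools held 3, 29, 53, 66 and 68 counts.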
